A study of Mus musculus with 2 samples.

Results

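Microglia are the resident macrophages of the central nervous system. Here 10 microglia identity and complement genes were followed in mouse optic nerve. In the mutant mice the transcription factor Tcf7l2 was inactivated in the oligodendrocyte lineage. The genes were taken by name. They are the receptor genes *Csf1r*, *Cx3cr1* and *P2ry12*, the cytoplasmic marker *Aif1* (Iba1), the receptor *Trem2* with its adaptor *Tyrobp*, the C1q chains *C1qa*, *C1qb* and *C1qc*, and the central complement component *C3*. All 10 of 10 were found in both libraries, among 23951 gene symbols that the libraries shared. All 10 were among the 14199 symbols compared, which had at least 1 FPKM in 1 library and were marked as quantified in both. FPKM is the fragment count of a gene divided by its transcript length and by the depth of its library.

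Total RNA came from optic nerves of mice at postnatal day 12, and 1 RNA-seq library was made for each genotype. The control library came from Tcf7l2 c/+; OLig1-cre mice, which carry Cre and 1 floxed *Tcf7l2* allele, and the cKO library from Tcf7l2 c/c; OLig1-cre mice, in which both alleles are floxed. The mice were of mixed stock (CD-1, 129Sv and C57Bl/6), and how many animals entered each library was not given in the sources used here. Cre from *Olig1* acts in the oligodendrocyte lineage, whereas microglia arise outside the neural lineage, so Cre is not directed at microglia. The floxed exon encodes the DNA-binding box, and the mutant mRNA may still be made, so the level of the whole *Tcf7l2* gene checks the labels only in part. It was 17.8 FPKM in the control library and 14.6 FPKM in the cKO library (log2 ratio -0.28).

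With 1 library per genotype there was no replicate, and no difference between genotypes could be tested. The level of each of the 10 genes is given with the lower and upper bound that Cufflinks printed beside it. For other genes the bounds are given only in places. These bounds cover counting and read assignment within 1 library and not the spread between mice. The log2 ratio is that of cKO over control after adding 0.1 FPKM to each. The cKO library was the deeper, at 39938000 fragments against 27624000 as read back from the interval bounds of short rows. A transcript of 1 kb with 3 fragments would have 0.109 FPKM in the control library and 0.0751 FPKM in the cKO library, far under all 10 genes. Rows without a gene name held 70.7% of all FPKM in the control library and 80.7% in the cKO library. Rescaling each library to its sum over all rows therefore moved the median log2 ratio of the compared genes by -0.65, from 0.047 to -0.61, and turned every positive ratio of the 10 genes negative. All directions below hold on the deposited FPKM scale and are best read against that median of 0.047.

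Colony-stimulating factor 1 receptor keeps microglia alive, CX3CR1 receives fractalkine from neurons, and P2RY12 senses extracellular nucleotides and guides the processes of resting cells. TREM2 binds lipids and apolipoproteins and signals through the adaptor TYROBP (DAP12). C1q opens the classical complement pathway, and C3, once cleaved, tags material for uptake. In developing nervous tissue these systems are known for the clearance of debris and the removal of synapses.

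On the FPKM scale, 8 of the 10 genes were higher in the cKO library and 2 were lower. By FPKM all 4 complement genes had higher ratios than the other 6, an order that *C1qa* lost by interval midpoints. A difference in the number of microglia and one in RNA per microglial cell cannot be told apart in RNA of whole nerve. The share of compared genes above 0 was 54.6%. The ratios of the 10 genes spanned -0.41 (*Aif1*) to 0.58 (*C1qb*) with a median of 0.37, where the middle 50% of compared genes lay between -0.22 and 0.36 and the central 90% between -0.83 and 1.18. None of the 10 passed a fold change of 1.5 upward, a size that 15.4% of compared genes passed, and none passed it downward, where 8.52% did. For 7 genes the cKO interval lay wholly above the control interval, for none wholly below, and for 3 the intervals overlapped. Non-overlap of that kind was common, at 30.0% of compared genes upward and 22.3% downward. The median was 0.15 over the 6 identity and signalling genes and 0.47 over the 4 complement genes (0.18 and 0.46 when the interval midpoints stood in for the FPKM).

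**Figure D1:**
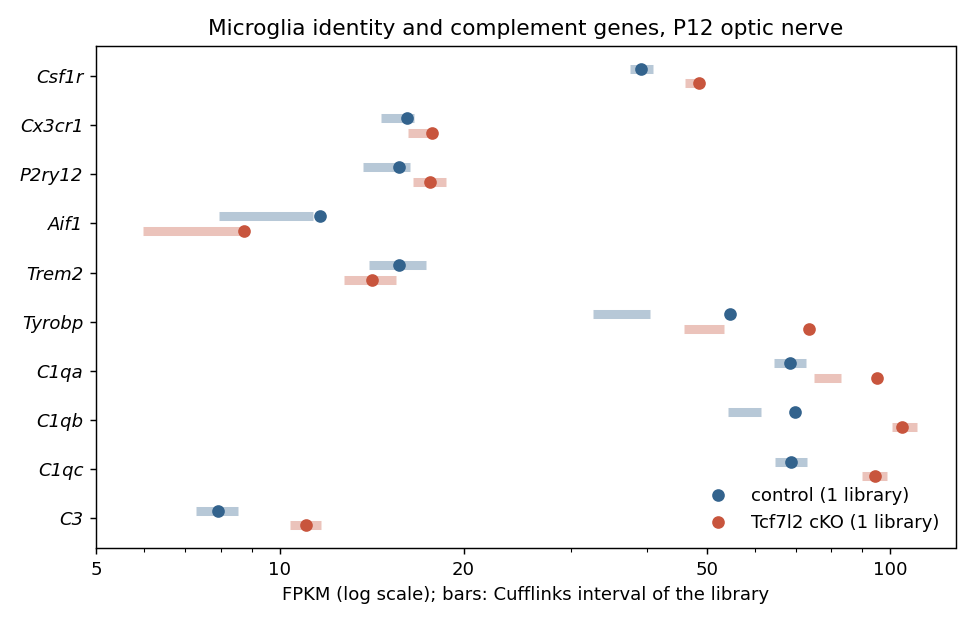
FPKM of the 10 genes on a log axis in the control library (blue) and the Tcf7l2 cKO library (red), 1 library each, with bars for the Cufflinks interval. The dots of *Aif1* and *Trem2* lie lower in the cKO library and those of the other 8 genes higher, all 8 turning lower when libraries are scaled by the sum of all rows; several dots, such as both of *Tyrobp*, lie outside their own bars.

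In 4 of the 10 genes the deposited FPKM lay outside its own interval in at least 1 library, which is a property of the files and limits how closely those ratios can be read. The same was seen in 7.26% of named rows in the control and 8.64% in the cKO. It touched *Aif1* and *Tyrobp* in both libraries, *C1qa* in the cKO and *C1qb* in the control. The ratio of interval midpoints is therefore given beside the FPKM ratio. Each library also mixes rows of reference gene models with rows of transcripts that Cufflinks assembled, and 7 genes had the same kind of row in both libraries while 3 did not (*Tyrobp*, *C1qa* and *C1qb*). Among compared genes, the 1876 that went from a reference row in the control to an assembled row in the cKO had a median log2 ratio of 0.20, and the 1464 that went the other way had -0.087. *Tyrobp* and *C1qb* went from a reference row in the control to an assembled row in the cKO, and *C1qa* went the other way. The part of row kind in the ratios of the 3 genes was not tested.

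*Csf1r* encodes the receptor for CSF1 and IL-34 on which microglia depend. It lies at chr18:61265226-61290793 (mm9, as are all positions of rows here). Its level was 39.0 FPKM in the control library (interval 37.5 to 40.8) and 48.6 FPKM in the cKO (46.1 to 49.3). The intervals were apart, and the log2 ratio of 0.32 exceeded that of 72.1% of compared genes. The neighbouring gene *Hmgxb3*, 137 bases away, was at 10.1 and 9.99 FPKM. Of the ligands, *Csf1* was at 25.1 FPKM in the control library and 20.8 FPKM in the cKO library, with the cKO interval below that of the control (log2 ratio -0.27). *Il34* was listed at 0 in both libraries. Of the 6 listed ligand genes of microglial receptors 5 were compared, 4 higher and 1 lower in the cKO library on the deposited scale (2 of 5 higher by the sum of all rows).

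*Cx3cr1* and *P2ry12* differed little between the libraries. *Cx3cr1*, the fractalkine receptor gene at chr9:119957801-119977414, was at 16.2 FPKM in the control library (14.7 to 16.6) and 17.7 FPKM in the cKO (16.2 to 18.0), with overlapping intervals and a log2 ratio of 0.13. Its ligand gene *Cx3cl1* differed more, with 3.65 FPKM in the control (3.09 to 4.11) against 10.5 FPKM in the cKO (9.39 to 10.9), a 2.84-fold difference on the deposited scale. *P2ry12*, at chr3:59020193-59066784 in the control, was at 15.6 FPKM (13.7 to 16.3) against 17.6 FPKM (16.5 to 18.7). Its intervals were apart by a small margin and its log2 ratio was 0.17 (0.23 on midpoints). *P2ry12* lies within the span of *Med12l*, which was at 2.65 and 2.39 FPKM, and the sources used here do not say whether strand was kept, so reads of the overlapping genes may not be told apart.

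Promoter windows of 7 of the 10 genes were taken from RefSeq (GRCm38.p6, 250 bases before to 50 after the start). No window was used for *Csf1r*, *Tyrobp* and *C1qa*. Those of *P2ry12*, *Aif1*, *Trem2*, *C1qb* and *C1qc* are shown. All 7 windows were searched on both strands for GAGGAAGT, the core of sites for the macrophage factor PU.1 (*Spi1*), and for its inner part AGGAAG. They were also searched for ATCAAAG, a core of sites for TCF factors such as Tcf7l2. Among 32851 mouse promoters of that length, 3.20% hold GAGGAAGT, 35.4% AGGAAG and 3.73% ATCAAAG. No match was found in the windows of *Cx3cr1*, *Aif1* and *C3*. Of the 7 windows searched, that of *P2ry12* (chr3:59262936-59263235, minus strand) is the window with a match to ATCAAAG, at bases 2 to 8. It also holds AGGAAG at bases 199 to 204. Matches are in capitals, and a match is a description of letters only.
P2ry12: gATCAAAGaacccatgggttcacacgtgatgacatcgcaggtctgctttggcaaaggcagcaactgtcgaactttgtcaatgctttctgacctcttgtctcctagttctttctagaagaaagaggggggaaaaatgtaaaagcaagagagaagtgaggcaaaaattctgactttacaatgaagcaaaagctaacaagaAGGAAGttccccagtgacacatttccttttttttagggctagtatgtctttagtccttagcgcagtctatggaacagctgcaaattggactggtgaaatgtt

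*Aif1* and *Trem2* were the 2 genes with lower values in the cKO library. *Aif1* encodes the actin-binding protein Iba1, the usual stain for microglia, at chr17:35307937-35312946. It was at 11.7 FPKM in the control library (7.94 to 11.3) and 8.73 FPKM in the cKO (5.98 to 8.61), so both values lay above their own intervals and the intervals overlapped. Its log2 ratio was -0.41 (-0.40 on midpoints), higher than that of 14.1% of compared genes. *Trem2*, at chr17:48485726-48491601, was at 15.7 FPKM (14.0 to 17.3) and 14.1 FPKM (12.8 to 15.5), again with overlapping intervals and a log2 ratio of -0.15. An unnamed row of 308 bases that overlapped or adjoined *Trem2* held 4.73 FPKM in the control (interval 0.94 to 3.41), and no such row was listed in the cKO.

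The promoter windows of both genes lie on chromosome 17 of GRCm38.p6, that of *Aif1* at chr17:35176003-35176302 on the minus strand and that of *Trem2* at chr17:48346151-48346450 on the plus strand. They are shown because these were the genes with lower values in the cKO. *Trem2* holds AGGAAG once, read on the other strand as CTTCCT at bases 210 to 215, 41 bases before the start site (capitals). *Aif1* holds none of the 3 motifs.
Aif1: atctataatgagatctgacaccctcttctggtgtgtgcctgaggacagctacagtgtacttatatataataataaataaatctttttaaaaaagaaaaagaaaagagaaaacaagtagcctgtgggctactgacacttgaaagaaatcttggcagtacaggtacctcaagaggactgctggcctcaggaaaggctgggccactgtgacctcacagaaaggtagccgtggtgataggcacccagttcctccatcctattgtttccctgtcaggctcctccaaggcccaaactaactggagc
Trem2: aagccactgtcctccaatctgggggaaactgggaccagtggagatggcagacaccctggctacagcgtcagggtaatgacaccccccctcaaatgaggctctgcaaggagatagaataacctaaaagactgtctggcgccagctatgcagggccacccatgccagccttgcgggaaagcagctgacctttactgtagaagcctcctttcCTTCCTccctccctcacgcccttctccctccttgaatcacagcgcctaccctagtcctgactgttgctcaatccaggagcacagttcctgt

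*Tyrobp* encodes the adaptor that carries the TREM2 signal, and its value went the other way. It lies at chr7:31198807-31202598 in the control. Its FPKM was 54.7 in the control (interval 32.6 to 40.4) and 73.5 in the cKO (45.9 to 53.4), both above their own intervals, with the intervals apart and a log2 ratio of 0.43 (0.44 on midpoints). The level of *Trem2* relative to *Tyrobp* within a library, which no scaling of the library can move, was 0.287 in the control and 0.192 in the cKO. On midpoints the same ratio was 0.429 and 0.285. *Trem2* had a reference row in both libraries, whereas *Tyrobp* had an assembled row in the cKO, and the part of this in the ratio was not tested. *Hcst*, which encodes the related adaptor DAP10 and begins 132 bases from *Tyrobp* in the control, was at 0.76 and 1.05 FPKM.

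Of the genes listed for TREM2 and TYROBP signalling, among them the related adaptor gene *Hcst*, 8 of 8 were compared. On the deposited scale 7 were higher in the cKO library and 1 was lower, with a median log2 ratio of 0.29, and by the sum of all rows 0 were higher. *Hcst* passed the minimum of 1 FPKM through the cKO library alone, which set its direction, and 6 of the 7 others were higher on the deposited scale. *Ptpn6*, the phosphatase SHP-1, was the 1 gene past a fold change of 1.5, at 4.93 FPKM in the control library and 7.74 FPKM in the cKO library (0.64). *Syk*, the kinase that TYROBP recruits, was at 1.99 and 2.27 FPKM with overlapping intervals (0.18). *Grb2*, an adaptor of many receptors, was at 36.4 and 35.4 FPKM (-0.04). *Apoe*, whose product is a TREM2 ligand made mostly by astrocytes, was at 3339 FPKM in the control library and 4114 FPKM in the cKO library (0.30, or 0.14 on midpoints, with both FPKM above their own intervals).

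C1q is built of A, B and C chains, and the genes lie side by side on mouse chromosome 4, within chr4:136436061-136454759 or 18699 bases in the control rows. *C1qb* and *C1qc* are separated by 3624 bases and *C1qc* and *C1qa* by 3001 bases. In the control library the chains had nearly the same FPKM. *C1qa* was at 68.5 FPKM (64.6 to 72.8), *C1qb* at 69.8 FPKM (54.1 to 61.3) and *C1qc* at 68.7 FPKM (64.6 to 72.9). In the cKO library *C1qa* was at 95.02 FPKM (74.9 to 83.0), *C1qb* at 104 FPKM (101 to 110) and *C1qc* at 94.2 FPKM (89.7 to 98.9).

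All 3 cKO intervals lay above the control intervals. The log2 ratios were 0.47 for *C1qa*, 0.58 for *C1qb* and 0.45 for *C1qc*, above those of 80.2%, 84.5% and 79.3% of compared genes. *C1qc* had an assembled row and an FPKM inside its interval in both libraries, and its midpoint ratio was 0.45 as well. For the other chains the choice of value mattered. On midpoints *C1qa* came to 0.20 and *C1qb* to 0.87, a fold of 1.83 for *C1qb* against 1.496 from the FPKM, so that *C1qb* passed the 1.5-fold line by midpoints and fell just short of it by FPKM. By midpoints 15.8% of compared genes passed that line upward. *C1qb* relative to *C1qa* was 1.02 in the control and 1.10 in the cKO by FPKM, and 0.840 and 1.34 by midpoints. *C1qc* relative to *C1qa* was 1.003 and 0.991 by FPKM.

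**Figure D2:**
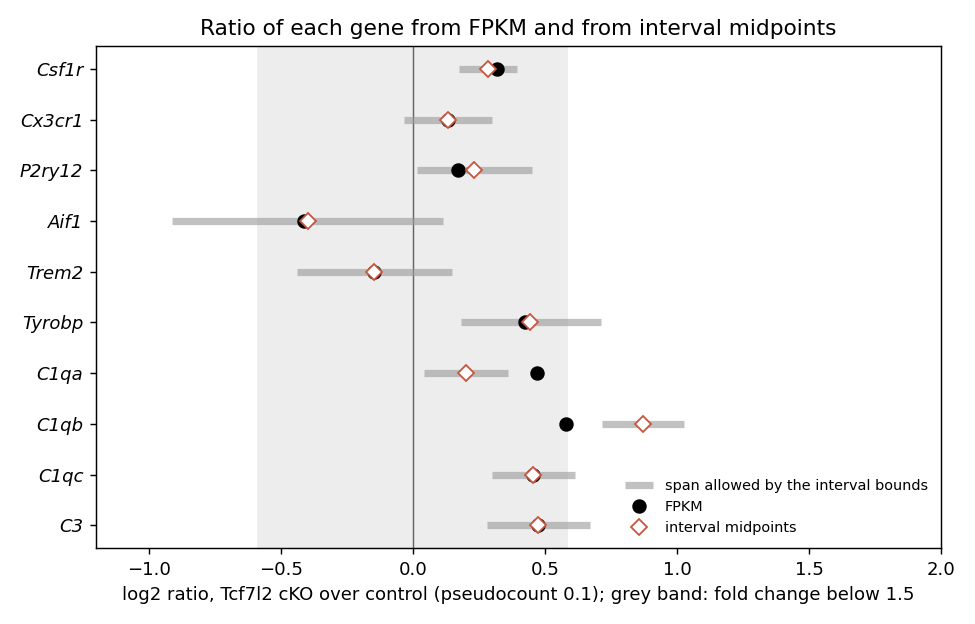
Log2 ratio of cKO over control for each gene from the FPKM (black) and from the interval midpoints (open red), with the span that the interval bounds allow (grey bar) and the band of fold changes under 1.5. The FPKM ratios of *C1qa* and *C1qb* lie outside their spans while *C1qc* and *C3* coincide by both measures; scaling by the sum of all rows puts all 10 FPKM ratios under 0.

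The windows of *C1qb* (chr4:136886151-136886450) and *C1qc* (chr4:136892865-136893164), both on the minus strand of GRCm38.p6, are shown because these neighbours had ratios in the same direction. The ratio of *C1qa* had that direction too, but no window was used for it. *C1qb* holds AGGAAG at 2 places, both read on the other strand as CTTCCT, 52 bases before the start site and 39 bases after it. Of the 7 windows searched, that of *C1qc* is the window with a match to the longer GAGGAAGT, read on the other strand as ACTTCCTC at bases 56 to 63. It has a further AGGAAG at bases 94 to 99. Neither holds ATCAAAG.
C1qb: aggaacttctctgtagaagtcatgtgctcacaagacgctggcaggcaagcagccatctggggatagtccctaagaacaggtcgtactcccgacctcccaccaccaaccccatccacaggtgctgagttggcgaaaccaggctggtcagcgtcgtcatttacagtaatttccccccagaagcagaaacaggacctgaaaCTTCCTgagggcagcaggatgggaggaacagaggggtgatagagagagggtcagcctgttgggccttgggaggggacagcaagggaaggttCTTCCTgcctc
C1qc: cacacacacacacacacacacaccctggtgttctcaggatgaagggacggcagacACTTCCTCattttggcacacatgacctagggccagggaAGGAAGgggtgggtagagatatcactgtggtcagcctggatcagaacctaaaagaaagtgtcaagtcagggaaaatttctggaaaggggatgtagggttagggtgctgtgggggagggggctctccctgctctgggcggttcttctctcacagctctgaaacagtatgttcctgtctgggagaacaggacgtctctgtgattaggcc

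C1q acts with the proteases C1r and C1s, whose genes were far lower than those of the chains. *C1ra* was at 1.22 FPKM in the control library (0.944 to 1.48) and 2.59 FPKM in the cKO (2.16 to 2.99), and *C1s1*, the mouse C1s gene, at 2.38 FPKM (2.01 to 2.75) and 3.56 FPKM (3.19 to 3.94). Both intervals were apart, with log2 ratios of 1.03 and 0.56. *Masp1*, a protease of the lectin pathway, was at 6.02 and 2.96 FPKM (-1.001). *C4a* and *C4b* are near-identical and shared a row in the cKO library, so their rows were summed, at 73.0 FPKM in the control library and 108 FPKM in the cKO library (0.57). *C2*, *Cfb* and *Cfp* lay on rows shared with other genes in the control, which left no clean value for the *Cfb* ratio. Of 17 listed component genes 8 were compared, and 3 of these had a row of their own in both libraries (*C1ra*, *C1s1* and *Masp1*).

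*C3* is the point at which the complement pathways meet. It lies at chr17:57343396-57367559 and was the lowest of the 10 genes in the control, at 7.91 FPKM (7.29 to 8.53). In the cKO it was at 11.0 FPKM (10.4 to 11.7), with the intervals apart and a log2 ratio of 0.47 (0.48 on midpoints). *C3* relative to *C1qa* was 0.115 in the control and 0.116 in the cKO by FPKM, and 0.115 and 0.140 by midpoints.

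Receptors of complement bind its fragments, and regulators restrain their deposition. Of 8 receptor genes 6 were higher and 2 lower, with a median log2 ratio of 0.16. The minimum of 1 FPKM left 5, of which *C5ar2* (0.666 and 1.05 FPKM) passed through the cKO library alone, and the 3 left out were *Itgax*, *Vsig4* and *Cr2*. The 5 were higher on the deposited scale, 4 of them after centring on the median of all compared genes and 2 by the sum of all rows. *C3ar1*, the C3a receptor, was at 1.71 and 3.23 FPKM (0.88) and *C5ar1*, the C5a receptor, at 1.13 and 2.48 FPKM (1.07). The subunits of complement receptor 3, which takes up C3-tagged material, were flatter, with *Itgam* at 6.96 and 6.99 FPKM (0.00) and *Itgb2* at 3.69 and 4.38 FPKM (0.24), both with overlapping intervals. Of 12 regulator genes 10 were compared, 8 higher and 2 lower, with a median of 0.53 (3 of 10 higher by the sum of all rows). *Cr1l* (Crry), the rodent inhibitor of C3 deposition on cells, was at 20.4 and 21.9 FPKM with overlapping intervals (0.10). *Vtn*, a plasma and matrix protein that inhibits the terminal complex, was at 160 and 256 FPKM (0.68), and *Cd46* was at 1.04 and 1.94 FPKM with overlapping intervals (0.84). The lowest ratios were those of *Cfi*, the protease that inactivates C3b, at 1.79 FPKM on an assembled row and 0.174 FPKM on a reference row (-2.79), and of *Cd93*, a C1q-related receptor of endothelium, at 15.3 and 9.11 FPKM (-0.74). *Cfi* passed the minimum of 1 FPKM through the control library alone, which set its direction.

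**Figure D3:**
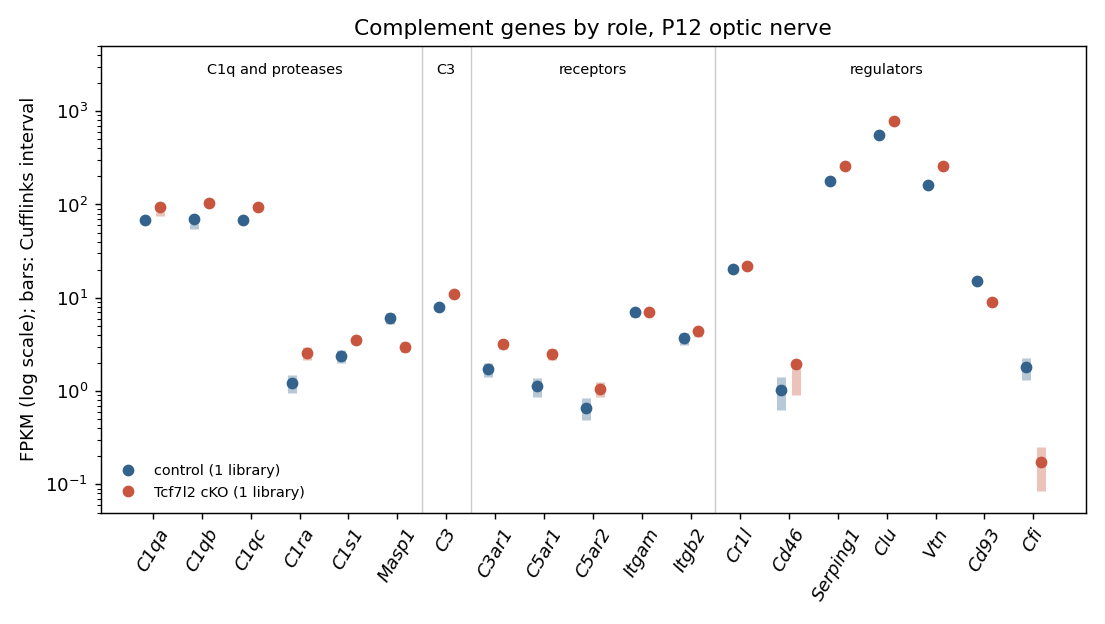
FPKM on a log axis of C1q genes and proteases, *C3*, complement receptors and regulators in the control library (blue) and the cKO library (red), 1 library each, for reported genes with a row of their own, with bars for the Cufflinks interval. The C1q chains stand at 68.5 to 104 FPKM and the proteases at 6.02 FPKM or less; *Masp1*, *Cd93* and *Cfi* lie lower in the cKO, the other genes plotted higher on the deposited scale, many of them lower by the sum of all rows.

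The order of levels among the 10 genes was much the same in both libraries. FPKM is a value per length, so genes can be set beside one another within a library. In the control the C1q chains came first, followed by *Tyrobp*, *Csf1r*, *Cx3cr1*, *Trem2*, *P2ry12*, *Aif1* and *C3*. Neighbours whose intervals overlapped were *C1qc* and *C1qa*, *Tyrobp* and *Csf1r*, *Cx3cr1* and *Trem2*, *Trem2* and *P2ry12*, and *Aif1* and *C3*. The interval of *C1qb* lay below those of *C1qc* and *C1qa* although its FPKM was the highest. In the cKO the overlapping neighbours were *Tyrobp* and *Csf1r*, and *Cx3cr1* and *P2ry12*. There *P2ry12* stood above *Trem2* and *C3* above *Aif1*, with the intervals apart in both pairs. The rank of *Aif1* among compared genes was 6201 in the control and 7698 in the cKO, and that of *C3* was 7962 and 6618.

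Dividing by *Csf1r* within each library removed any scaling between libraries. *Aif1* was 0.299 of *Csf1r* in the control and 0.180 in the cKO, and *Trem2* was 0.402 and 0.291. *Cx3cr1* was 0.414 and 0.365, and *P2ry12* was 0.401 and 0.362. *C1qb* was 1.79 and 2.15 times *Csf1r*, and *C1qc* was 1.76 and 1.94 times. *C1qa* was 1.76 and 1.95 times *Csf1r* by FPKM but 1.75 and 1.66 times by midpoints, so its direction relative to *Csf1r* was not settled by these files. *Tyrobp* was 1.40 and 1.51 times *Csf1r* by FPKM and 0.932 and 1.04 times by midpoints, so that by midpoints it stood below *Csf1r* in the control.

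Other microglial genes spread around the same values. The defining marker *Tmem119* was present in both libraries, at 13.9 and 19.8 FPKM. Of 20 listed identity genes 19 were compared, 14 of them higher and 5 lower in the cKO library on the deposited scale, with a median log2 ratio of 0.30 (4 of 19 higher by the sum of all rows). Past a fold change of 1.5 were 4 genes, all upward, against the 15.4% of compared genes given above. *Olfml3*, a secreted matrix protein enriched in microglia, was at 26.4 and 51.0 FPKM (0.95), and *Mertk*, a receptor for apoptotic cells that astrocytes also express, at 3.76 and 7.15 FPKM (0.91). The lowest were *Gpr34*, a lysophospholipid receptor, at 5.34 and 3.55 FPKM (-0.58) and *Siglech*, a sialic acid-binding lectin, at 4.94 and 3.71 FPKM (-0.41), both with the cKO interval below that of the control. *Spi1*, the gene of PU.1, was at 5.26 and 7.90 FPKM (0.58). The summed level of the list was 298 FPKM in the control library and 376 FPKM in the cKO library.

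Genes of phagocytic and white matter microglia lay on both sides of 0. Of 16 listed genes 15 were compared, 11 higher and 4 lower, with a median log2 ratio of 0.045, close to the 0.047 of all compared genes. After centring on the median of all compared genes 7 were higher and 8 lower. *Spp1*, osteopontin, was at 12.7 and 32.3 FPKM (1.34) and *Gpnmb* at 2.16 and 4.10 FPKM (0.90). *Cd9*, a tetraspanin that myelinating cells also make, was at 613 and 308 FPKM (-0.99), and *Cst7*, a cystatin, at 1.30 and 0.608 FPKM with overlapping intervals (-0.98). *Cst7* passed the minimum of 1 FPKM through the control library alone, which set its direction.

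Genes of other cells of the nerve and its coverings also differed between the libraries. Border macrophages of the meninges and vessels also express *Csf1r*, *Tyrobp* and C1q. Of their 11 listed markers 9 were higher and 2 lower, with a median log2 ratio of 0.64. Their summed level was 166 FPKM in the control library and 153 FPKM in the cKO library over all 11, but 94.4 and 139 FPKM without *Folr2*, which shared a row with another gene in the control (71.2 FPKM) and had its own in the cKO (13.7 FPKM). *Siglec1*, which reached 1 FPKM in the cKO library alone, was at 0.755 and 3.08 FPKM (1.89), *F13a1* at 10.7 and 19.0 FPKM (0.82), *Mrc1* at 10.5 and 16.8 FPKM (0.68) and *Stab1* at 16.0 and 15.3 FPKM (-0.06); 5 of the 11 listed were higher by the sum of all rows. Meningeal fibroblast genes with a row of their own summed to 7741 FPKM in the control library and 15413 FPKM in the cKO library, 7 of 7 higher with a median of 0.49. *Ptgds* made up most of both sums, at 6009 and 12780 FPKM (1.09), and *Col3a1* was at 285 and 302 FPKM (0.09). Over all 8 listed, with *Pdgfra* on a shared row (-0.09, or 1.40 on midpoints), 7 were higher with a median of 0.44 (3 of 8 by the sum of all rows). Oligodendrocyte genes summed to 31579 and 18087 FPKM, 0 of 8 higher with a median of -0.94, and astrocyte genes to 5447 and 6428 FPKM, 7 of 8 higher with a median of 0.21 (1 of 8 by the sum of all rows). The part of these cells in the levels of the 10 genes was not tested.

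**Figure D4:**
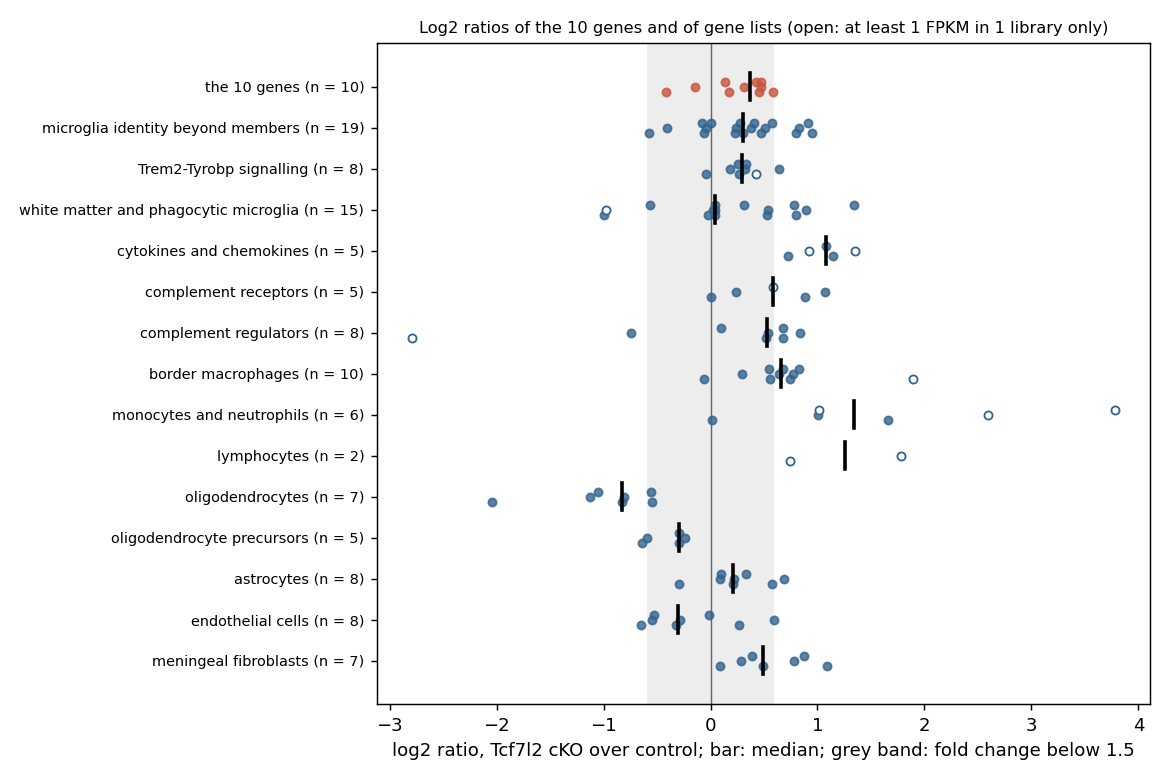
Log2 ratios of cKO over control for the 10 genes (red) and for compared genes of 14 lists (blue) that have a row of their own in both libraries, with the median of each list as a black bar and the band of fold changes under 1.5 in grey. Open circles are genes that reached 1 FPKM in 1 library only, so that their direction was set by that minimum. The 10 genes lie within the band and all oligodendrocyte genes under 0; scaling by the sum of all rows shifts the median of all compared genes by -0.65 and puts all 10 genes under 0.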

How the data were processed

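Optic nerve RNA of 1 control and 1 Tcf7l2 cKO library at postnatal day 12 was extracted with Trizol, prepared with an Illumina RNA-seq kit and sequenced on a HiSeq 2000. Per the labels, the authors aligned reads with TopHat and quantified them with Cufflinks on mm9; versions are not given in the sources used here. Their deposited gene tables hold FPKM with lower and upper bounds and a status, and no counts.

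Rows of a symbol were summed, and a row naming several genes was given to each. Log2 ratios used a pseudocount of 0.1. A gene was compared with at least 1 FPKM in 1 library and status OK in both, and a fold change above 1.5 was counted. No test was run and no p-value computed. The calculation, in Python 3.11.15 with pandas 2.3.3, was tested on simulated data. Alternatives changed the pseudocount, the minimum, the fold change, the scaling, the merged rows and the value used. *C1s1* stands for C1s and was matched by that symbol.

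The 10 genes and 19 gene lists were chosen with earlier results of these data known. Genes named in the text were all 10, genes among the 2 largest and 2 smallest log2 ratios of each list, direct partners of the 10, and markers of other cells; *Tmem119* and *Cxcl10* were added after their values were seen. Some listed genes are not reported here by name. Promoters came from RefSeq (GRCm38.p6) by symbol, with chromosome 18 left out for the 10 genes, and were not joined to mm9 positions.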

Additional observations from a re-analysis of the deposited data

How the results depend on the processing

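Of 130 log2 ratios of single genes under the alternative settings, 8 turned direction, all when all rows were rescaled to a sum of 1000000. That setting gave 0 genes higher in the cKO library and 2 past a fold change of 1.5, with a median of -0.30. The median over all compared genes on that scale was -0.61, itself past a fold change of 1.5 downward. Passing that line downward was therefore common there, and the median of the 10 genes lay above that of all compared genes. The log2 ratios were -0.20 for *C1qa*, -0.090 for *C1qb*, -0.22 for *C1qc*, -0.19 for *C3*, -0.35 for *Csf1r*, -0.53 for *Cx3cr1*, -0.50 for *P2ry12* and -0.24 for *Tyrobp*, and the genes past the fold change were *Aif1* (-1.07) and *Trem2* (-0.81). Unnamed rows, which take most of the sum, make this scale differ by construction. Interval midpoints, an alternative chosen after seeing the data, put 1 gene past 1.5 (*C1qb*, 0.87). No paired analysis was possible because there was 1 library per genotype. With no replicate, the spread between mice is unknown, and depth limits only genes far lower than these 10.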

Other observations

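Of 11 listed cytokine and chemokine genes 8 had higher and 3 lower values in the cKO library, with a median log2 ratio of 0.72. The minimum of 1 FPKM left 5, which were higher on every scale tried, but *Ccl3* and *Ccl4* passed it through the cKO library alone, and the 6 left out were split, 3 higher and 3 lower (*Tnf* -0.26, *Il6* -0.50 and *Nos2* -0.58). *Cxcl10*, an interferon-induced chemokine, was at 13.6 FPKM in the control library and 28.7 FPKM in the cKO library (1.08) with the intervals apart. *Ccl12* was at 7.59 and 16.9 FPKM with overlapping intervals (1.14), but its cKO value lay above its own interval and its midpoint ratio was 0.58. *Ccl4*, a chemokine made by microglia, was at 0.476 and 1.37 FPKM with overlapping intervals (1.35). *Ccl3* was at 0.927 and 1.84 FPKM (0.92) and *Ccl2* at 2.10 and 3.54 FPKM (0.72), both with overlapping intervals.

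Leukocyte genes were low, and the minimum set the direction of several of those compared. Without the minimum, 9 of 9 monocyte and neutrophil genes found and 8 of 8 lymphocyte genes were higher on the deposited scale. The 3 and 6 of these that it left out lay under 1 FPKM in both libraries. Of 10 listed monocyte and neutrophil genes 9 were found and 6 compared, 3 of them through the cKO library alone, summing to 9.33 FPKM in the control library and 21.5 FPKM in the cKO library over the 9 found. *S100a9*, 1 of these 3 and a granulocyte calcium-binding protein, was at 0.228 and 4.42 FPKM (3.78), and *Ly6c2* at 5.03 and 5.10 FPKM (0.02). Of 8 lymphocyte genes 2 were compared, both through the cKO library alone, *Cd4* at 0.275 and 1.19 FPKM (1.78), a gene that some macrophages also express, and *Cd79a* at 0.612 and 1.09 FPKM (0.74). Of 6 red blood cell genes 5 were compared. The haemoglobin genes share rows, and *Alas2*, the erythroid gene with a row of its own, passed through the cKO library alone and was at 0.607 and 1.39 FPKM (1.08).

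Other cell types of the nerve spread in both directions on the deposited scale. Oligodendrocyte precursor genes were higher in 0 of 6 (median log2 ratio -0.30) and endothelial genes in 2 of 8 (-0.30). Among the precursor genes, *Pdgfra* lay on a shared row, at -0.09 by FPKM but 1.40 by midpoints, so its direction was not settled. Without it 0 of 5 were higher. *Cspg4* was on both the precursor and the pericyte list. Pericyte and smooth muscle genes were higher in 4 of 7 (0.21, and 1 of 7 by the sum of all rows), and neuronal genes in 5 of 6 (0.79, and 4 of 6 by the sum of all rows); 1 gene of each of these lists passed the minimum through the cKO library alone. None of these differences between single libraries was tested.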
